A study of Mus musculus with 2 samples.

Results

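Regulatory T cells that transcribe *Foxp3* were a small group of barcodes in scRNAseq libraries of NOD/ShiLtJ and CD1 mouse salivary gland. A barcode was a member when it held 500 or more UMIs (counted transcript molecules) over 300 or more genes, no more than 10% of them mitochondrial, at least 2 UMIs of *Cd3d*, *Cd3e*, *Cd3g* and *Trac* together, at least 1 UMI of *Foxp3*, no UMI of *Cd8a*, *Cd8b1*, *Cd79a* or *Ms4a1*, and at most 1 UMI of *C1qa* and *Csf1r* together. These conditions found 173 members in the NOD library and 3 in the CD1 library, 176 of the 10591 barcodes that passed the depth and mitochondrial limits. The levels of these genes chose the members, so they are given as a description.

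NOD/ShiLtJ is an inbred strain that develops lymphocytic infiltrates of the salivary glands and serves as a model of Sjögren's disease. CD1 is an outbred stock and was the control. The mice were 20-week-old females with no treatment, and the strain was the only difference between groups that the labels give. Submandibular and sublingual glands were pooled into 1 library per strain, from 4 mice per pool in the methods and 3 in the labels. EpCAM- and Ter119-positive cells were depleted to enrich stroma, so the shares below are of the cells left after depletion. Because each strain had 1 library, no difference was tested, and the 95% intervals cover counting error only. In the summed values, fewer transcripts per cell and fewer cells with transcripts cannot be told apart without the shares of barcodes given beside them.

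Regulatory T cells restrain other lymphocytes and are needed for tolerance to self. FOXP3 is their lineage-defining transcription factor, and it acts together with Ikaros-family partners such as Helios. They consume IL-2 through the high-affinity receptor chain CD25 while making little IL-2 themselves, signal through STAT5, and use CTLA-4, IL-10, activated TGF-β and adenosine-producing enzymes to limit neighbouring cells.

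The promoter windows of 3 listed genes are shown because they hold the letters TTCNNNGAA, a match to the STAT motif downstream of the IL-2 receptor. Each window is the 250 bases before a gene start in RefSeq on GRCm38.p6, which is not the GRCm39 build of the counts, and every one lies on the plus strand. *Foxp3* (chrX:7580233-7580482) encodes the factor itself, *Tnfrsf18* (chr4:156026072-156026321) encodes GITR, and *Tnfrsf9* (chr4:150927749-150927998) encodes 4-1BB. Capitals mark TTCNNNGAA and, in *Tnfrsf9*, also TGANTCA, a match to the AP-1 motif.
Foxp3: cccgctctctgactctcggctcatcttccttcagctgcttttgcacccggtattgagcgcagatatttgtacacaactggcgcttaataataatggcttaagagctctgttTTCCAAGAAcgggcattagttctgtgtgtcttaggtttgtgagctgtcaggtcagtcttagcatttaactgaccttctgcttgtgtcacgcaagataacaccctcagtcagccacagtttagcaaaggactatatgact
Tnfrsf18: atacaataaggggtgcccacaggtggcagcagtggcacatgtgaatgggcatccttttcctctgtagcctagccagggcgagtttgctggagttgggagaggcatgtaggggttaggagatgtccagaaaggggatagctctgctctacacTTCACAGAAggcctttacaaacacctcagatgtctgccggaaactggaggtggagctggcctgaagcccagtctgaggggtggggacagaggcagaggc
Tnfrsf9: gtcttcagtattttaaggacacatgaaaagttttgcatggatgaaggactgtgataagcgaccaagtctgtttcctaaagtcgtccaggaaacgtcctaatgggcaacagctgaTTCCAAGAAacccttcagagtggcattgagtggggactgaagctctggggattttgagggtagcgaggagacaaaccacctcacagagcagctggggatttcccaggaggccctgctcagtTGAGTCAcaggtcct

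*Foxp3* and *Tnfrsf9* held the same 9 letters, TTCCAAGAA, which began 139 and 136 bases before the start. *Tnfrsf18* held TTCACAGAA, 99 bases before it. RefSeq gave *Foxp3* and *Tnfrsf9* a second start each (windows chrX:7579426-7579675 and chr4:150919905-150920154), and neither of those windows held any of the 3 motifs searched. Windows were read on both strands for 15 of the 22 genes on the regulatory T identity list described below, and TTCNNNGAA was in at least 1 window of 3 of the 15 beside 8.13% of 27025 genes. TGANTCA was in 2 of the 15 (*Tnfrsf9* and *Gzmb*) beside 7.82%. The forkhead letters TGTTTAC were in 0 of the 15 beside 3.54%. The 3 motifs do not overlap in the windows shown, and a match describes letters in a window, not a site in use.

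The NOD library held 52790319 UMIs and the CD1 library 56483149. Of these, 4917 NOD barcodes (median 6757 UMIs) and 5674 CD1 barcodes (median 7534.5 UMIs) passed the limits, and 6 passing barcode sequences occurred in both libraries. T barcodes, chosen by the same conditions without *Foxp3* and *Cd8*, numbered 2218 in NOD and 207 in CD1. Members were 7.80% of the T barcodes in NOD (interval 6.72 to 9.0) and 1.45% in CD1 (0.30 to 4.18). As a share of all passing barcodes they were 3.52% in NOD (3.02 to 4.07) and 0.0529% in CD1 (0.0109 to 0.154). Among members and *Foxp3*-negative CD4 T barcodes together (the latter with at least 1 *Cd4* UMI), members were 18.6% in NOD (16.2 to 21.3; 173 of 928) and 8.82% in CD1 (1.86 to 23.7; 3 of 34). On the last denominator a *Cd4* UMI was asked of the *Foxp3*-negative barcodes but not of members. It was present in 116 of 173 NOD members and in all 3 CD1 members, so this unequal condition bears on the 2 strains differently. The 2 libraries were apart on the first 2 denominators, whereas on the last the intervals overlapped.

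*Foxp3* was sparse in members. After thinning to 1000 UMIs, *Foxp3* was still seen in 46 of 172 NOD members deep enough to thin and 1 of 3 CD1 members. These were 2.08% of 2212 thinned T barcodes in NOD and 0.483% of 207 in CD1. With the NOD T barcodes without *Cd8* split by depth into 4 groups, members made up 13.1%, 9.49%, 7.04% and 12.4% from the shallowest to the deepest, with no steady course over depth. In other NOD classes, a *Foxp3* UMI was found in 0.401% of B barcodes (median 6503 UMIs) and 0.659% of endothelial barcodes (median 5704 UMIs). It was found in 0.954% of NOD CD8 T barcodes (5 of 524, median 7245 UMIs), beside a median of 6869 UMIs in members. In CD1 it was found in 0.367% of 2449 macrophage barcodes and 0.276% of 2177 endothelial barcodes. The NOD share of T barcodes was above the shares in these other classes. The interval of the CD1 share overlapped those of the CD1 macrophage and endothelial barcodes. The source of *Foxp3* in the other classes, and the part of free RNA in the member shares, were not tested.

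**Figure D1:**
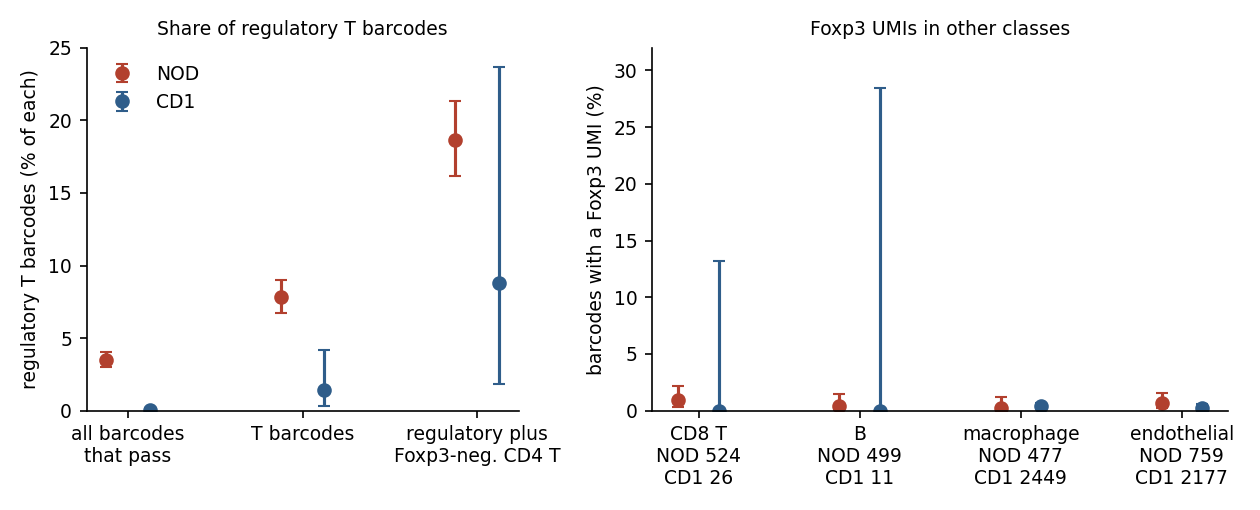
Left, regulatory T members as a percent of passing barcodes, of T barcodes, and of members plus Foxp3-negative CD4 T barcodes, in NOD (red) and CD1 (blue). Right, percent of barcodes of 4 other classes with a Foxp3 UMI, with the number of barcodes under each class. Points are shares and bars are 95% Clopper-Pearson intervals. NOD members sat above CD1 members in each of the 3 denominators, and the intervals overlapped in the last. The last asks a Cd4 UMI of the Foxp3-negative barcodes only.

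Of the 173 NOD members, 61 held 1 *Foxp3* UMI, 49 held 2, 28 held 3, 17 held 4 and the rest held 5 to 9. The 3 CD1 members held 3, 5 and 4. Just outside the conditions in NOD lay 12 barcodes that failed only by a *Cd8* UMI, 16 that failed only by a B cell gene, 10 with fewer than 2 T cell UMIs and 5 with 2 or more macrophage UMIs. The 16 with a B cell gene had 637 *Ikzf2* UMIs and the 12 with *Cd8* had 570. Members with 1 *Foxp3* UMI held 1546 *Ikzf2* UMIs in all. *Cd4*, which the conditions did not ask for, was detected in 116 of 173 members and in each of the 3 CD1 members. In CD1, 6 barcodes failed only by the T cell condition, and they had 0 UMIs of *Ikzf2* and *Ctla4*.

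Genes on the marker lists of other cell types were detected in some members. With 10 or more UMIs of 1 marker list of another cell type taken as mixed, 13 of 173 members and 57 of 755 NOD *Foxp3*-negative CD4 T barcodes were mixed. NK and innate lymphoid genes accounted for 8 of the 13 members, endothelial genes for 4 and dendritic genes for 2. The NK and innate lymphoid list holds the cytotoxic lymphocyte genes *Gzma* and *Eomes*, and by it 127 of 519 CD8 T barcodes were also mixed. Whether such UMIs came from another cell or from the T cell itself was not tested. The deepest member, of 38473 UMIs, held 108 macrophage-list UMIs, 100 *Lyz2*, 81 *Fn1* and 87 *Ccl6*, with 1 *Foxp3* and 4 *Ikzf2* UMIs. The next member held 2 macrophage-list UMIs. The highest Scrublet doublet scores took in 6 of the 173 members, and not this barcode. Counts without the mixed barcodes are given beside the identity and cell cycle lists and, between strains, beside the identity and interferon lists.

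To learn what the members shared that did not choose them, UMIs were summed over the 173 members (1515452 UMIs) and over the 755 *Foxp3*-negative CD4 T barcodes (6198804 UMIs) of the NOD library, and given as counts per 1000000 (CPM). The regulatory T identity list held 21 genes beside *Foxp3*. In members 16 of the 21 were at least 2-fold higher and none was at least 2-fold lower, with a median log2 ratio of 1.81. Over all 12053 genes with 20 or more UMIs the median was 0.03, and 5.45% were at least 2-fold higher and 6.5% lower. Without mixed barcodes the list gave 15 higher and 0 lower of 20.

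*Ikzf2*, which encodes Helios, was at 3876 CPM in members and 486 in *Foxp3*-negative CD4 T barcodes, a log2 ratio of 3.0 (interval 2.93 to 3.06). It was detected in 166 of 173 members and 329 of 755 of the other barcodes. At an equal 1000 UMIs it was still detected in 84.9% and 19.4%, a gap that remained at equal depth. *Ikzf4*, which encodes the related factor Eos, was at 146 and 25.5 CPM (log2 2.52). The noncoding gene *Flicr*, next to *Foxp3* on the X chromosome, was detected in 24 of 173 and 6 of 755 barcodes (log2 4.09, 2.77 to 5.67).

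Among receptors, *Il2ra* (CD25) was at 292 CPM in members and 52.4 in the other CD4 T barcodes, a log2 ratio of 2.48 (2.27 to 2.69). *Ctla4*, the inhibitory receptor for CD80 and CD86, was at 511 and 175 CPM (log2 1.55, 1.41 to 1.68). Both were higher in members, and both were also detected in a part of the *Foxp3*-negative barcodes. TNF receptors that costimulate T cells formed a block: *Tnfrsf4* (OX40) was at 505 and 124 CPM (log2 2.02), *Tnfrsf9* at 187 and 44.8 (2.06), *Tnfrsf18* at 351 and 100 (1.81), and *Tnfrsf1b* (TNFR2) at 263 and 83.7 (1.65). *Izumo1r*, the folate receptor 4 gene of regulatory T cells, was at 298 and 97.1 CPM (log2 1.62). *Icos* and *Nrp1* were nearer to the reference, with log2 ratios of 0.66 and 0.60. The costimulation and TNF receptor list had 8 higher and 1 lower of 23 measured genes. The lower gene was *Cd40lg*, the helper ligand for B cells, at 38.3 CPM in members and 235 in the other CD4 T barcodes (log2 -2.62, -3.02 to -2.24), detected in 27 of 173 and 475 of 755.

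**Figure D2:**
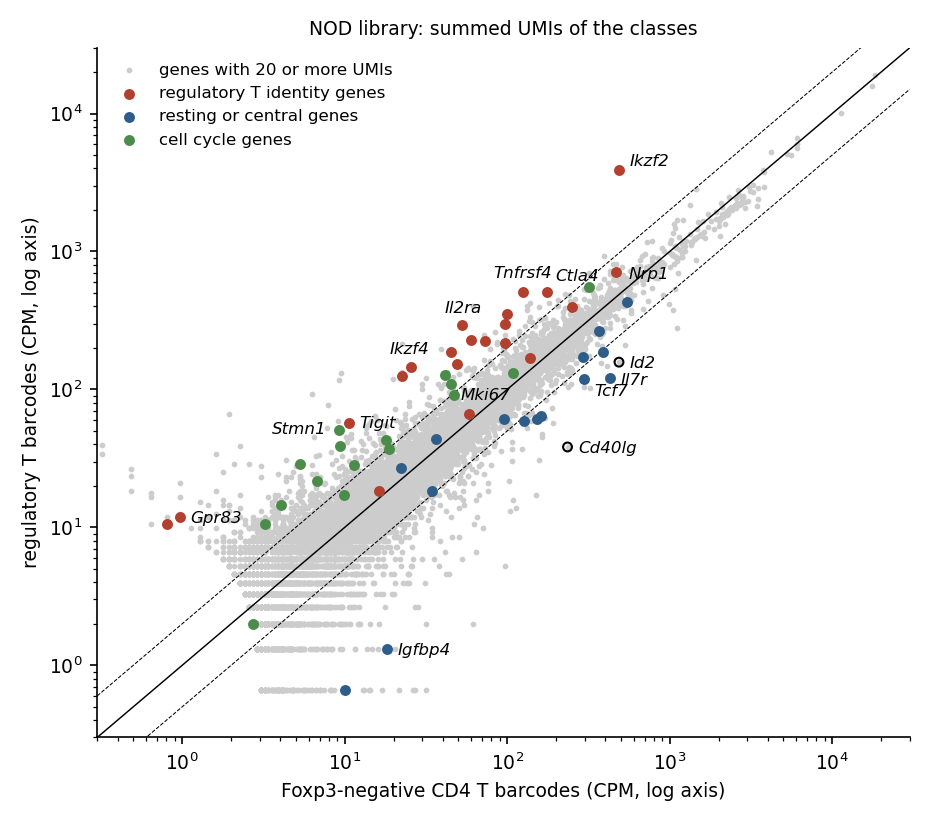
Summed UMIs as CPM in regulatory T members (vertical) against Foxp3-negative CD4 T barcodes (horizontal) of the NOD library, both on log axes, 1 point per gene with 20 or more UMIs and at least 1 UMI in each class. Red, blue and green points are genes of the regulatory T identity, resting or central and cell cycle lists, and black circles are Cd40lg and Id2. The solid line marks equal levels and the dashed lines a 2-fold difference. Ikzf2 stood far above the line, at 3876 against 486 CPM.

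Of the genes with which regulatory T cells suppress, 8 of 16 measured were at least 2-fold higher and 1 was lower, with a median log2 ratio of 1.05. This list and the costimulation list each share genes with the identity list, among them *Ctla4*, so their counts are not separate from it. *Itgb8*, the integrin chain that activates latent TGF-β, was at 229 CPM in members and 60.0 in the other CD4 T barcodes (log2 1.93, 1.72 to 2.15), and *Lrrc32*, which holds latent TGF-β on the surface, had 16 and 5 UMIs (log2 3.71, 2.20 to 5.51). *Tgfb1* itself was at 112 and 105 CPM (log2 0.09, -0.16 to 0.34). *Il10* had 42 UMIs in 16 members and 31 UMIs in 14 other barcodes (log2 2.47, 1.77 to 3.19). Of the ectoenzymes that make adenosine, *Entpd1* (CD39) had a log2 ratio of 1.15 (0.95 to 1.35) and *Nt5e* (CD73) of 0.29 (0.08 to 0.49). *Areg*, a tissue repair ligand, had 17 and 11 UMIs (log2 2.66). The lower gene was *Penk* (proenkephalin), 32 and 382 UMIs, of which 14 and 94 came from 1 barcode each.

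IL-2 receptor signalling genes other than *Il2ra* lay closer to the reference. *Il2rb* had a log2 ratio of 0.59 (0.45 to 0.73), *Stat5a* of 0.80 (0.42 to 1.18) and *Pim1*, a STAT5 target, of 1.13 (0.96 to 1.29). *Il2* had 0 UMIs in members and 86 in 43 of the other CD4 T barcodes, a log2 ratio of -2.81 or lower when 3 UMIs are taken as the limit of a count of 0. The list as a whole had 2 higher and 2 lower of 15. Helper regulators and cytokines had 0 higher and 6 lower of 13, with *Il21* at 6 and 193 UMIs (log2 -2.98), *Ifng* at 52.1 and 132 CPM (-1.34) and *Tnf* at 68.0 and 142 (-1.07). *Tbx21*, the Th1 regulator, had a log2 ratio of -0.95 (-1.26 to -0.65).

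Genes of resting or recirculating T cells were lower in members, with 0 higher and 8 lower of 15 and a median log2 ratio of -1.06. *Il7r*, the IL-7 receptor, was at 120 CPM in members and 430 in the other CD4 T barcodes (log2 -1.84, -2.06 to -1.62). *Tcf7* (119 and 296 CPM), *Satb1* (64.7 and 161) and *Klf2* (61.4 and 153) each had a log2 ratio of -1.32. *Ccr7*, the lymph node homing receptor, was sparse in both, with a log2 ratio of -0.90 (-1.53 to -0.33). *Id2*, on the effector list, was at 158 and 487 CPM (log2 -1.63), against 9 of the 24 effector genes that were higher, among them *Tigit* (2.41), *Prdm1* (1.60), *Ccr8* (1.37) and *Havcr2* (2.41). Of 22 homing genes 2 were higher and 4 lower, with *Itgae*, the CD103 chain that binds epithelial E-cadherin, at 2.47 (2.14 to 2.79) and *Cxcr6* at -1.52 (-1.76 to -1.28).

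Cell cycle genes were higher in members, 10 of 16 with a median log2 ratio of 1.30, but rested on few barcodes. *Mki67* had 167 UMIs in 24 members, 39 of them in 1 barcode, and a log2 ratio of 1.30 (1.01 to 1.58). *Top2a* had 194 UMIs in 33 members, 52 in 1 barcode (1.63, 1.35 to 1.90). Without mixed barcodes 12 of 15 cell cycle genes were higher. Interferon response genes lay at the median of all genes, with 0 higher and 1 lower of 30 (median 0.03), and dissociation stress genes had 2 higher and 3 lower of 16. All 35 *Atf3* UMIs of members, 1 of the 2 higher stress genes, came from 1 barcode.

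**Figure D3:**
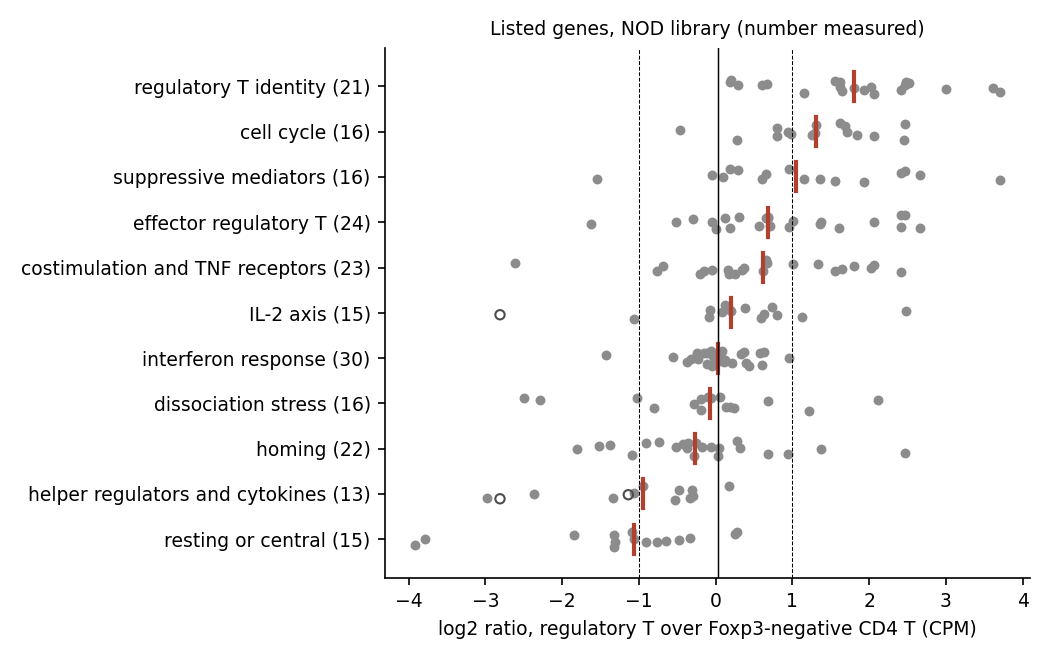
Log2 ratio of CPM, regulatory T members over Foxp3-negative CD4 T barcodes of the NOD library, for the measured genes of 11 lists, 1 point per gene. Red bars are list medians, open circles are genes with 0 UMIs in a class set at the limit of 3 UMIs, the solid line is the median of all genes (0.03) and dashed lines mark 2-fold. The identity list had the highest median (1.81) and the resting or central list the lowest (-1.06).

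Ranked by the interval bound nearest 0, each of the 10 highest genes in members had most of its UMIs in 1 barcode, among them *Fn1*, *Ccl6* and *Lyz2* from the barcode with macrophage genes. A second ranking, set after these values were seen, left out mixed barcodes and genes with over 25% of their UMIs in 1 barcode. *Zc3h12c*, which encodes a Regnase-family ribonuclease, then led at 120 CPM in 160 members and 5.07 in 698 *Foxp3*-negative CD4 T barcodes (log2 4.56, 3.95 to 5.22). *Il1r2*, the IL-1 decoy receptor, was detected in 15 and 4 barcodes (4.83), *Tnfrsf8* (CD30) in 24 and 11 (4.13), the membrane trafficking gene *Snx9* in 64 and 25 (3.80), *Neb* (nebulin) in 71 and 31 (3.71), and *Swap70* in 72 and 54 (3.01). *Arl5a* was seen in 109 of 160 members (2.85). At the other end stood the lipid flippase gene *Atp8b4* (3 and 386 UMIs, log2 -4.98), the sialyltransferase gene *St3gal6* (6 and 556, -4.51), *Itga1*, the collagen-binding integrin chain of resident T cells (15 and 534, -3.13), and *Tgfbr3*, the TGF-β co-receptor betaglycan (28 and 798, -2.81).

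*Epcam*, which encodes the surface protein used for the depletion, had 47 UMIs in 26 members and 27 UMIs in 23 other CD4 T barcodes (log2 2.83, 2.12 to 3.57). The keratins *Krt8*, *Krt18* and *Krt14* were at 0 in members, and 3 of the 6 epithelial-list genes were detected, summing to 46.2 CPM in members, 14.0 in the other CD4 T barcodes and 107 in NOD droplets of 10 to 100 UMIs, taken as empty. *Ighm*, an immunoglobulin gene, was detected in 102 of 173 members (59.0%, 140 CPM), 30.6% of *Foxp3*-negative CD4 T barcodes (58.1 CPM), 18.5% of CD8 T barcodes (31.0 CPM), 36.7% of macrophage barcodes (80.2 CPM) and 6.85% of endothelial barcodes (16.7 CPM). B barcodes were at 75.8% and 274 CPM, and empty droplets at 632 CPM. At an equal 1000 UMIs the shares of the 3 T cell classes were 12.2%, 5.04% and 1.73%. The part of B cell or free RNA in the *Ighm* values was not tested.

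The other marker lists, summed per class, were at 410 CPM in members and 554 in *Foxp3*-negative CD4 T barcodes for NK and innate lymphoid genes (*Xcl1* the most abundant), 216 and 259 for endothelial genes, 155 and 165 for plasma cell genes, and 49.5 and 52.1 for gamma-delta and invariant T genes. Macrophage genes summed to 90.4 and 42.8 CPM, of which *Lyz2* made 66.6 in members. Dendritic genes summed to 77.2 and 46.1, B cell genes to 160 and 67.9, and fibroblast genes to 3.96 and 84.7. Some of these sums came largely from 1 barcode. A step added after these values were seen left the barcode richest in each list out of each class. Macrophage genes were then at 19.6 and 29.1 CPM, dendritic genes at 38.4 and 34.5, fibroblast genes at 3.33 and 5.66 and B cell genes at 157 and 66.8. Gamma-delta and invariant T genes were then at 25.5 and 48.5 CPM, as 37 of their 75 UMIs in members came from 1 barcode. Erythroid genes were at 0 in members and 4.36 in the others. Of the 8 pan-T genes, 4 belong to the rule and are no comparison. The other 4 summed to 1025 and 991 CPM.

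Against the 519 CD8 T barcodes of the NOD library (4386539 UMIs), the identity list had 16 higher and 1 lower of 19 measured, with a median log2 ratio of 3.21 beside 0.03 over 11306 genes. Of all genes 8.41% were at least 2-fold higher and 6.78% lower. The CD8 reference shared no barcode with the CD4 reference, but both ratios used the same 173 members. *Ikzf2* had a log2 ratio of 4.70 (4.58 to 4.82), *Tnfrsf4* of 5.72 (5.27 to 6.21), *Izumo1r* of 5.60 (5.04 to 6.21), *Itgb8* of 5.58 (4.94 to 6.29) and *Prickle1*, a planar polarity gene, of 6.47. *Ccl5* was at 484 CPM in members and 5777 in CD8 T barcodes (-3.58, -3.68 to -3.47), and the cytotoxic lymphocyte genes *Gzmk* (-5.09), *Eomes* (-5.75) and *Gzma* (-3.86) were among the lowest. The lower identity gene was *Gzmb* at -2.70. *Itgae*, higher in members than in CD4 T barcodes, was lower than in CD8 T barcodes (-0.41, -0.65 to -0.18), and *Cd40lg*, lower than in CD4 T barcodes, was near the CD8 level (0.43, -0.05 to 0.89). Suppressive mediators had 10 higher and 2 lower of 15, effector genes 16 and 4 of 24, costimulation genes 11 and 1 of 23, and cell cycle genes 2 and 0 of 15. Of the CD8 T barcodes 133 were mixed, 127 of them by the NK and innate lymphoid list. With mixed barcodes left out on both sides, cell cycle genes had 8 higher and 0 lower of 14 (median 1.34, from 0.64), and the identity list again had 16 higher and 1 lower of 19.

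**Figure D4:**
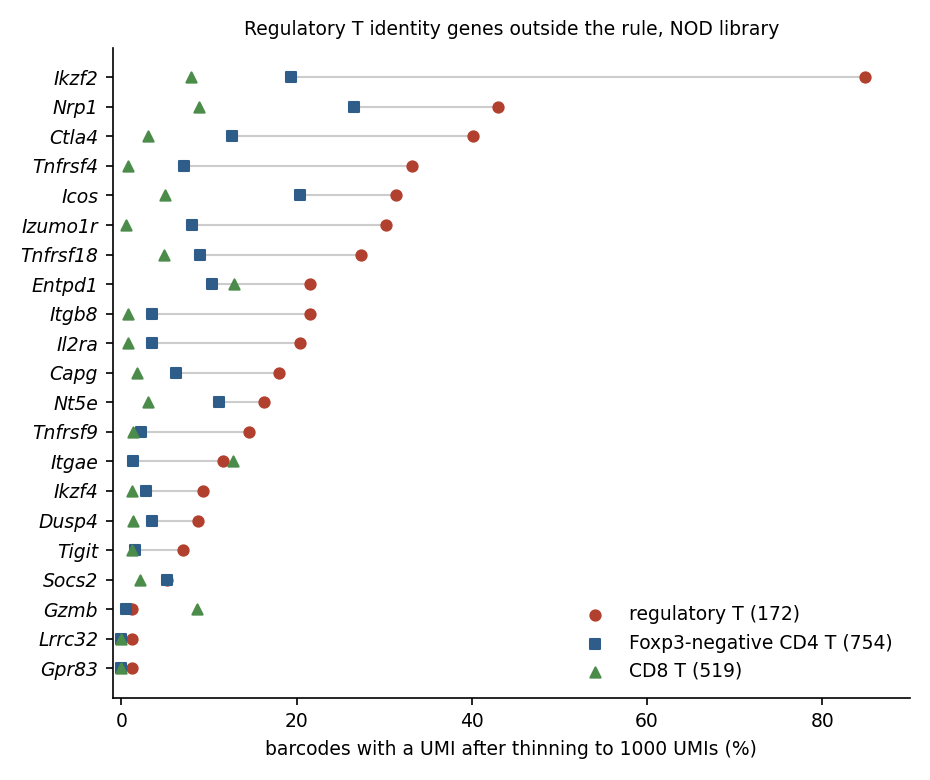
Percent of NOD barcodes with a UMI of each identity gene after thinning to 1000 UMIs, in 172 regulatory T members (circles), 754 Foxp3-negative CD4 T barcodes (squares) and 519 CD8 T barcodes (triangles); grey lines join the first and second. Ikzf2 was seen in 84.9% of members, 19.4% of CD4 T and 7.90% of CD8 T barcodes, and Itgae was seen at close shares in members and CD8 T barcodes.

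Single barcodes carried several of these genes together. For 6 genes chosen after their values were seen (*Ikzf2*, *Ctla4*, *Il2ra*, *Tnfrsf18*, *Tnfrsf4* and *Izumo1r*), 135 of 173 members had at least 4 (78.0%, 71.1 to 84.0), against 164 of 755 *Foxp3*-negative CD4 T barcodes (21.7%) and 4 of 519 CD8 T barcodes (0.771%). After thinning to 1000 UMIs the shares were 18.6%, 0.928% and 0.193%. Of the 164 barcodes, 82 had 4 of the genes, 53 had 5 and 29 had all 6. In them a missed *Foxp3* transcript and a cell without *Foxp3* cannot be told apart. *Ikzf2* and *Nrp1* were seen together in 133 members, and *Icos* and *Ctla4* in 120.

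Members were not uniform. *Mki67* or *Top2a* was detected in 46 of 173 members (26.6%, median 10119.5 UMIs, against 6332 in the rest), so depth moved with this split. Without mixed barcodes, 40 such members had more *Stmn1* (log2 4.54), *Birc5* (5.82), *Hmgb2* (2.83) and *Lgals1* (1277 against 472 CPM, 1.44) than the other 120, and less *Tcf7* (-1.65), *Bach2* (-1.34) and *Cd96* (-1.82). Of 18 identity genes outside the rule, 6 had an interval below 0 and none above it, 5 had a ratio above 0, and the median was -0.16. The share over all genes was not counted for this split, so these counts only describe the list. *Capg* differed by 0.33 (-0.02 to 0.68), *Tnfrsf9* by 0.22 and *Izumo1r* by 0.20, while *Ikzf2* differed by -0.14, *Il2ra* by -0.20 (-0.52 to 0.11), *Ctla4* by -0.48 (-0.73 to -0.24), *Nrp1* by -0.49, *Itgb8* by -0.74 (-1.15 to -0.35) and *Nt5e* by -1.24 (-1.80 to -0.72). *Foxp3*, a gene of the rule, was at 227 CPM in these members and 350 in the others. Each member needed at least 1 *Foxp3* UMI at any depth, which raises its CPM in shallower barcodes, so these 2 values are no comparison. Depth also moved with the number of *Foxp3* UMIs, at a median of 7409 UMIs in members with 2 or more and 5716 in those with 1, and its part in the next values was not tested. Without mixed barcodes, members with 2 or more (104) and with 1 (56) had *Ikzf2* at 4470 and 4159 CPM (0.10, 0.02 to 0.19), *Ctla4* at 566 and 570 and *Il2ra* at 325 and 318. *Mki67* (2.10, 1.29 to 3.05), *Top2a* (1.95) and *Stmn1* (3.22) were higher in those with 2 or more, with 39 of 146, 52 of 172 and 29 of 73 UMIs from 1 barcode. *Il10* was lower (-1.88, 8 and 7 barcodes, with 12 of the 24 UMIs of those with 1 *Foxp3* UMI from 1 barcode), as were *Maf* (-0.78) and *Gpr183*, a receptor for oxysterols (-2.65). These splits were made on the same barcodes, so the values are a description.

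Helper-type regulators were seen in small numbers. *Cxcr3* with *Tbx21*, the Th1 pair, was found in 25 of 173 members, *Gata3* with *Il1rl1*, the IL-33 receptor, in 13, and *Bcl6* with *Cxcr5*, the follicular pair, in 8 (median 22854.5 UMIs). *Ifng* was detected in 29 and *Il10* in 16. *Il2* and *Il17a* were in 0 of 173, which allows a share of up to 1.73% with a UMI.

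The strain comparison within members set 1515452 NOD UMIs against 24635 CD1 UMIs from 3 barcodes of 4574, 10524 and 9537 UMIs. *Ikzf2*, *Ctla4* and *Il2ra* were detected in each CD1 member. *Tnfrsf18* was at 0 in the first, *Tnfrsf4* at 0 in the third, and *Itgb8* and *Tigit* at 0 in all 3. *Ikzf2* was at 656, 2185 and 4299 CPM in the 3 barcodes, against a NOD median of 3683 (quartiles 1943 and 5633). *Ctla4* was at 656, 760 and 524 against a median of 389, and *Il2ra* at 219, 95 and 419 against 86.2. All 3 CD1 members had at least 5 of the 6 genes above, against 1 of the 31 CD1 *Foxp3*-negative CD4 T barcodes with at least 4.

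Of 8093 genes measured, 5.23% were at least 2-fold higher in NOD members and 15.3% lower, 423 and 1237 genes. By median-of-ratios scaling the reference point lay at -0.48 on this log2 scale, and relative to it 916 were higher and 657 lower, so the direction of this split depended on scaling. A gene at 0 UMIs in the CD1 members was set at the limit of 3 UMIs (122 CPM). By CPM it counted as higher only at 2-fold or more above that limit, which also held down the number of higher genes. In *Foxp3*-negative CD4 T barcodes, 755 in NOD and 31 in CD1, the same comparison gave 10.7% higher and 5.68% lower of 11561. The identity list had 0 higher and 6 lower of 19 in members by CPM, which became 1 higher and 0 lower by median-of-ratios scaling, and 11 higher and 1 lower of 19 in *Foxp3*-negative CD4 T barcodes. Without mixed barcodes it had 0 and 3 of 18 in members by CPM, and 9 and 1 of 19 in the other class, whose median log2 ratio went from 1.66 to 0.68. Markers of other cells moved with that class. In its NOD barcodes 8 of 9 NK and innate lymphoid genes were at least 2-fold lower than in CD1 (554 and 1642 CPM summed), and 4 of 6 endothelial genes were at least 2-fold higher. Of the 496 NK and innate lymphoid UMIs in CD1, 340 came from 1 barcode. With the richest barcode of each strain left out, the sums were 516 CPM in NOD and 579 in CD1. Without mixed barcodes 2 of 7 NK and innate lymphoid genes were lower, and of 4 endothelial genes 0 were higher and 2 lower. Plasma cell genes had 2 of 3 at least 2-fold higher in NOD both with mixed barcodes (median 1.62) and without them (1.54). For B cell genes this was 1 of 2 in both. In this class, 164 of 755 NOD and 1 of 31 CD1 barcodes had at least 4 of the 6 genes above, all of them on the identity list. The parts of these markers and of missed *Foxp3* transcripts in the identity counts were not tested. *Ikzf2* was 0.51 log2 units higher in NOD members (0.16 to 0.88; 0.99 with the other scaling) and 2.61 higher in NOD *Foxp3*-negative CD4 T barcodes (2.04 to 3.26), and the difference between these was not tested.

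*Gvin3*, which belongs to a family of interferon-inducible giant GTPases, led the genes higher in NOD. It had 1197 UMIs in 156 of 173 NOD members and 0 in the CD1 members, a log2 ratio of at least 2.70 at the limit of 3 UMIs (122 CPM). In *Foxp3*-negative CD4 T barcodes it had 4043 UMIs in 667 of 755 barcodes in NOD and 1 UMI in 31 in CD1 (log2 7.62, 5.14 to 12.93). Other genes near the top of the member comparison did not separate the strains in the larger class. *Itga4*, the alpha-4 integrin chain, had 1287 and 1 UMIs in members (4.39, 1.91 to 9.69) but a log2 ratio of 0.09 (-0.07 to 0.26) in *Foxp3*-negative CD4 T barcodes, in all 31 of which it was detected in CD1. *Ccl5*, *Maml2* and *Zeb1* were at 0 UMIs in the CD1 members, and had log2 ratios of -0.54, 0.30 and 0.53 in the larger class. The 5 lowest genes in NOD members were *Tsc22d3* (-3.98), *Itga2* (-3.80), *H2-T22* (-3.81), *Zfp282* (-3.53) and *Hopx* (-3.05). Each of the 5 had most of its CD1 UMIs in 1 barcode.

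Interferon response genes had 5 higher and 1 lower of 29 in members (median 0.17; 6 and 0 by median-of-ratios scaling) and 11 higher and 1 lower of 30 in *Foxp3*-negative CD4 T barcodes (median 0.50). Without mixed barcodes these were 5 and 1 of 29, and 8 and 2 of 30. *Mndal* was higher in NOD in both, by 1.83 (0.28 to 4.11) and 2.16 (1.65 to 2.73). Its 3 UMIs in CD1 members came from 1 barcode, at 315 CPM beside a NOD median of 349. *Iigp1*, an immunity-related GTPase, had 398 and 0 UMIs in members and a log2 ratio of 2.56 (1.67 to 3.62) in the larger class. With 3 CD1 barcodes, differences as small as the list's median were not detectable at this depth.

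**Figure D5:**
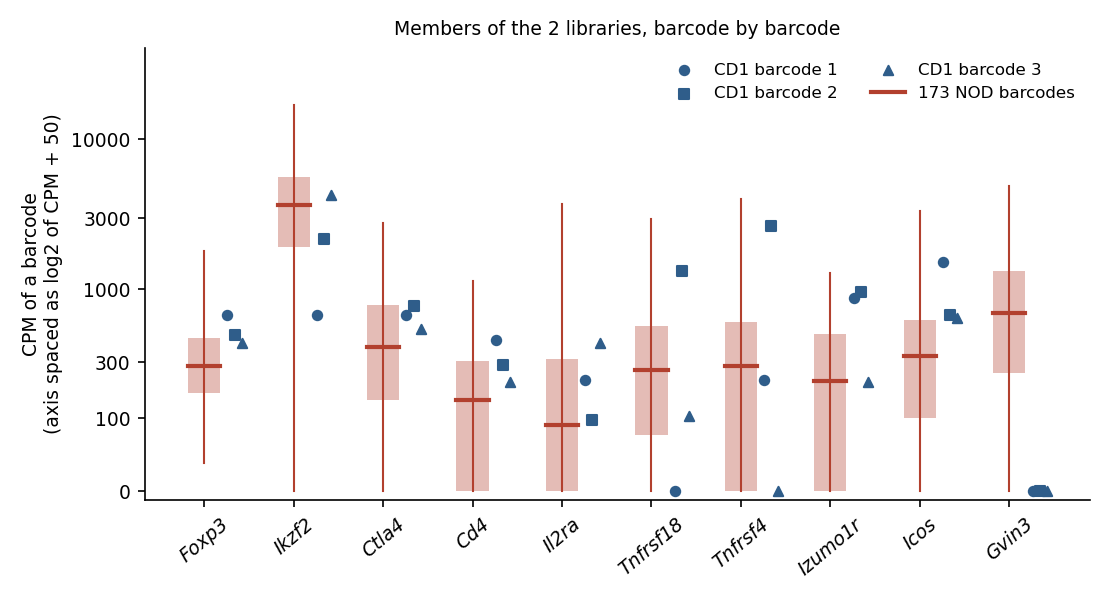
CPM of single members for 10 genes, on an axis spaced as log2 of CPM + 50. Red bars, boxes and lines are the median, quartiles and range of 173 NOD members, and blue symbols are the 3 CD1 members. Gvin3 was at 0 in all 3 CD1 members against a NOD median of 685 CPM. Ctla4, Icos, Il2ra and Cd4 lay above the NOD medians in all 3 CD1 members. So did Foxp3, which chose the members and is no comparison.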

How the data were processed

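Per the file headers, the authors deposited unfiltered matrices of UMI counts, made with Cell Ranger 8.0.0. The submitters' processing notes also name GRCm39, Seurat 5.0.1 and R 4.3.1. No cell filter, scaling or doublet removal had been applied to these counts, and the authors' cell annotation was not used here.

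Members and gene lists were chosen with earlier results of these data known. UMIs were summed per class and scaled to counts per 1000000. Intervals (95%) were exact Poisson for levels, conditional binomial for ratios and Clopper-Pearson for shares. With 1 library per strain no test was run. Genes needed 20 UMIs over both classes, 2-fold marked a difference, and a count of 0 was set to 3 UMIs per class for a bound. Named genes were list members and, per comparison, the 10 highest and 10 lowest (5 between strains) by the interval bound nearest 0, without ribosomal, mitochondrial, predicted and member-defining genes. The 6-gene set, the definition of mixed barcodes, the second ranking, *Flicr* and other genes outside this rule were chosen after values were seen. So was *Gvin3*, which the rule also named among the highest in NOD members. B, endothelial and macrophage barcodes were taken by marker UMIs. Scrublet (scanpy 1.11.5) scored doublets, which were removed only in an alternative. Promoter windows came from RefSeq (GRCm38.p6). Other tools were Python 3.11.15, numpy 2.4.6, scipy 1.17.1 and pandas 2.3.3, tested on simulated data. Some listed genes are not reported here.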

Additional observations from a re-analysis of the deposited data

Results flagged for a closer look

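*Foxp3* transcripts were also found outside the members. NOD barcodes of 10 to 100 UMIs, taken as empty droplets, held 98 *Foxp3* UMIs (20.0 CPM, interval 16.2 to 24.4), against 1 (0.297 CPM) in the same range of CD1. *Ikzf2* was at 261 and 37.7 CPM, *Ctla4* at 59.8 and 1.48 and *Cd3g* at 603 and 35.3 in these droplets, whereas *Il2ra* was at 35.1 in NOD and 66.2 in CD1. The part of this free RNA in the member counts was not tested.

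Another 32 NOD barcodes met every condition but the mitochondrial limit, against 0 in CD1. They had a median of 3218.5 UMIs and held 51 *Foxp3* and 543 *Ikzf2* UMIs.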

How the results depend on the processing

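The member share of NOD T barcodes was 7.80%. It became 5.05% with at least 2 *Foxp3* UMIs, 5.23% with a *Cd4* UMI required, 2.30% when barcodes were thinned to 1000 UMIs before the conditions, and 10.1% without mixed barcodes, an alternative chosen after seeing the data. In CD1 thinning left 0 of 79 T barcodes, which allows a share of up to 3.8%. Against *Foxp3*-negative CD4 T barcodes, 657 genes were higher and 783 lower. Higher genes became 328 after thinning, 323 at a minimum of 50 UMIs and 2548 at 1 UMI, and lower genes 423 at 50 UMIs and 1277 against all *Foxp3*-negative T barcodes without *Cd8*. Between strains 423 genes were higher and 1237 lower in NOD members. Higher genes became 177 at a mitochondrial limit of 5%, 916 with median-of-ratios scaling, 28 after thinning and 126 with free RNA subtracted, and lower genes 657 with that scaling, 396 after thinning and 621 at 50 UMIs. Fewer barcodes or genes enter several of these settings, and for the rest the cause was not tested. With CD8 T barcodes as the reference, *Itgae* (-0.41) and *Cd40lg* (0.43) changed sign. Over the other alternatives *Itgae* kept its sign but ranged from 0.65 to 3.02. Single-gene values were pooled with the counts of the cell cycle, resting or central and suppressive lists. Of these values under the alternatives, 350 stayed the same, 83 moved and 2 reversed. A gene stayed the same inside the counting interval of its main value, and a list count within a set fold of its main count. No replicate could be left out. No paired analysis was possible because each strain had 1 library.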

Other observations

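T cell receptor segments were sparse in these libraries. A *Trav* segment was seen in 39 of 173 NOD members, over 30 of the 130 segments in the files, and a *Trbv* segment in 31 members, over 14 of 35. *Trbv2* was the most frequent *Trbv* segment, in 7 members (4.05%) and in 31 of 755 *Foxp3*-negative CD4 T barcodes (4.11%). *Trav16n* was the most frequent *Trav* segment, in 4 members. *Trac* was detected in 146 members and *Trdc*, the delta chain, in 7. In CD1, *Trac* was seen in all 3 members and a *Trav* segment, *Trav4d-2*, in 1.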
